A study of Mus musculus with 9 samples.

Results

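The MYC, MAX and MXD network comprises 10 mouse genes here, Myc, Mycn, Mycl, Max, Mxd1, Mxd3, Mxd4, Mxi1, Mnt and Mga, which were chosen by symbol and matched by Entrez identifier to 10 of the 18755 genes in the count table. Their RNA was measured in 4T1 primary tumors. 4T1 is a metastatic mammary carcinoma cell line of BALB/c origin, and the cells were injected into a mammary fat pad of female BALB/c mice aged 6 to 10 weeks. From day 15 after injection, 6 mice received BI 853520 (BI), an inhibitor of focal adhesion kinase (FAK), at 50 mg/kg for 5 days, and 3 mice received 0.5% Natrosol, the vehicle in which BI was given. Each mouse gave 1 library from a piece of the whole tumor, so that carcinoma cells of 1 cell line were measured together with the host's stroma and leukocytes, and the study kept only tumors with RNA of sufficient quality. In such bulk samples, fewer cells of a type and less RNA per cell cannot be told apart.

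The network is built around MAX, a small basic helix-loop-helix leucine zipper protein with which all the others pair to bind DNA at E-boxes, above all the letters CACGTG. MYC, MYCN and MYCL activate transcription as MAX partners and drive ribosome production, nucleotide and polyamine synthesis and entry into the cell cycle. MXD1, MXI1, MXD3 and MXD4 compete for MAX and recruit the SIN3 histone deacetylase complex to the same sites, MNT does so in most cell types, and MGA joins MAX in a variant Polycomb complex. In many tissues the MXD genes are associated with differentiation and rest, apart from Mxd3, which is expressed in proliferating cells.

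Total counts per tumor ranged from 16931607 to 33850245 (median 20972840), and levels are given as CPM, the counts scaled to a common library size after TMM normalization. A gene was called where the p of edgeR's quasi-likelihood test, adjusted by Benjamini-Hochberg, did not exceed 0.05. Of the 13966 genes tested, 28.7% were called, 14.6% as higher and 14.1% as lower in BI-treated tumors. Among the markers of other cell types, summed macrophage markers went from between 1370 and 1810 CPM to between 2630 and 3340 CPM, with 6 of 6 genes called as higher, and summed neutrophil markers went from between 1080 and 1240 CPM to between 366 and 834 CPM, with 4 of 6 genes called as lower. T and NK cell markers (7 of 8), dendritic cell markers (4 of 5), endothelial markers (3 of 5), B cell markers (2 of 4) and fibroblast markers (1 of 5) also included genes called as higher, and no adipocyte or skeletal muscle marker was called. The epithelial markers of the carcinoma cells summed to between 952 and 1180 CPM in vehicle-treated and between 747 and 956 CPM in BI-treated tumors, almost all of it from Krt8 and Krt18, the 2 of 6 genes called as lower. Epcam, Krt7 and Cdh1 had log2 fold changes of 1.06, 0.59 and 0.16 and were not called. The mammary markers Krt14 and Epcam were scarce (0.924 ± 0.818 and 2.13 ± 0.603 CPM in vehicle-treated tumors, SD, n = 3).

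Of the 10 members, 9 passed the filter on low counts and were tested, and 4 of these were called, beside the 28.7% of all genes. Mycl and Mxd4 were higher and Myc and Mxd1 were lower in BI-treated tumors, so each side of the network had a member in each direction. In these 4 genes the groups did not overlap, which held for 28.1% of all genes tested. The median log2 fold change was -0.11 over the 9 members and -0.0037 over all genes tested. The cutoffs of the study (p up to 0.05 and a change of 1.5-fold or more) were passed by 13.2% of all genes, 9.59% as higher and 3.57% as lower. Of the 9 members, Mycl and Mxd4 passed them as higher and none as lower.

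**Figure D1:**
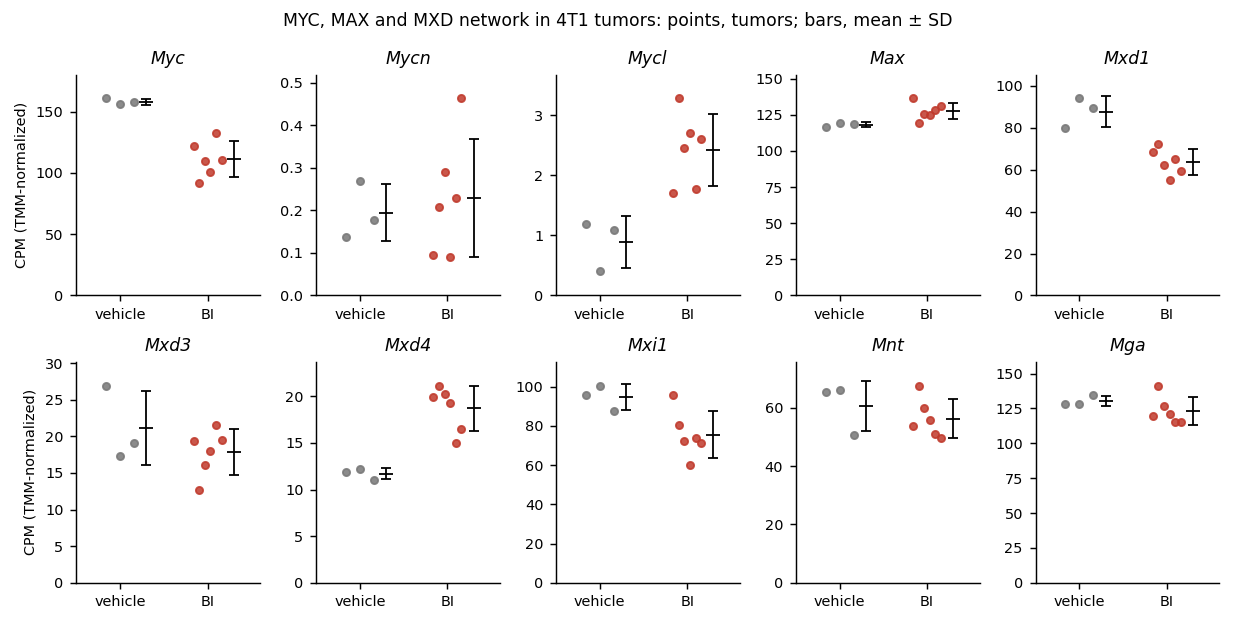
CPM of the 10 members in each tumor, with vehicle in gray (n = 3) and BI in red (n = 6), and the mean and SD as black bars beside the points; each axis starts at 0. Myc and Mxd1 lie lower and Mycl and Mxd4 higher in every BI-treated tumor than in every vehicle-treated tumor, while the other members overlap.

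Myc, the founding oncogene of the family (Entrez gene 17869), occupies positions 61816946 to 61821929 of chromosome 15 in mm9, plus strand. It measured 160.9, 156.0 and 157.5 CPM in the 3 vehicle-treated tumors. In the 6 BI-treated tumors it ranged from 91.7 CPM to 132.5 CPM with a median of 110.1 CPM. The vehicle-treated tumors were nearly alike, and every BI-treated tumor was below all of them, with BI replicate 8 nearest and BI replicate 5 furthest. The mean went from 158.2 ± 2.53 CPM to 111.1 ± 14.7 CPM (SD), which is -0.51 on the log2 scale with a standard error of 0.0953 (adjusted p = 0.00229 in edgeR's quasi-likelihood test), or a change of -29.7%. The exact permutation test over the 84 divisions of the tumors gave a two-sided p of 0.0238, the smallest it can give.

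Mycl, a paralog known from small cell lung cancer and from dendritic cells, was present at a far lower level (Entrez gene 16918, chromosome 4 of mm9 from 122672895 to 122679728, plus strand). It had 26, 9 and 37 counts in the vehicle-treated tumors and between 31 and 63 counts in the BI-treated tumors. Scaled to depth, this was 1.19, 0.403 and 1.09 CPM against 1.70 to 3.29 CPM, so that the lowest BI-treated tumor still exceeded the highest vehicle-treated tumor. The log2 fold change was 1.41 with a standard error of 0.334 (adjusted p = 0.0086 in edgeR's quasi-likelihood test). Vehicle replicate 2 was the lowest of its group, and without it the log2 fold change was 1.09 (adjusted p = 0.0282 in the same edgeR test). Mycn, the neural paralog (Entrez gene 18109, chromosome 12 from 12942902 to 12948720, minus strand), gave 3 to 6 counts in vehicle-treated and 2 to 8 counts in BI-treated tumors. It was not tested, and a difference was not detectable at this depth, at which 3 counts corresponded to between 0.0886 and 0.177 CPM.

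Max, the shared partner (Entrez gene 17187, chromosome 12 from 78038256 to 78063235, minus strand), was among the most abundant members. It measured 116.6, 119.6 and 118.7 CPM in vehicle-treated tumors and from 119.5 to 136.5 CPM, with a median of 126.8 CPM, in BI-treated tumors. Max exceeded its highest vehicle value in 5 of the 6 BI-treated tumors, BI replicate 5 being the exception. The difference of 0.11 on the log2 scale (standard error 0.053) missed the threshold in edgeR's quasi-likelihood test (adjusted p = 0.142), with a two-sided p of 0.0476 in the exact permutation test.

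Among the MXD repressors, Mxd1 and Mxd4 were called in opposite directions. Mxd1 (Entrez gene 17119, chromosome 6 from 86597038 to 86619153, minus strand), which is induced in differentiating cells and abundant in granulocytes, measured 79.9, 94.1 and 89.2 CPM in vehicle-treated tumors. In BI-treated tumors it ranged from 54.9 to 72.3 CPM with a median of 63.7 CPM, below every vehicle-treated tumor. Its log2 fold change was -0.46 with a standard error of 0.0846 (adjusted p = 0.00205 in edgeR's quasi-likelihood test), close in size to that of Myc. Mxd4 (Entrez gene 17122, chromosome 5 from 34516536 to 34530369, minus strand) measured 11.9, 12.2 and 11.1 CPM in vehicle-treated tumors. It ranged from 15.0 to 21.2 CPM with a median of 19.7 CPM in BI-treated tumors, all above the vehicle-treated tumors. With a log2 fold change of 0.68 and a standard error of 0.115 (adjusted p = 0.00122 in edgeR's quasi-likelihood test), a 1.6-fold higher level, Mxd4 had the smallest p of the network.

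Mxi1 and Mxd3 were not called. Mxi1 (Entrez gene 17859, chromosome 19 from 53384996 to 53450300, plus strand), a repressor also known as a target of hypoxia-inducible factor, measured 95.9, 100.6 and 87.6 CPM in vehicle-treated and from 59.8 to 95.8 CPM (median 73.1 CPM) in BI-treated tumors. It was below the lowest vehicle value in 5 of the 6 BI-treated tumors, and BI replicate 4 was within the vehicle range. Its log2 fold change of -0.32 had an adjusted p of 0.0509 in edgeR's quasi-likelihood test, just outside the threshold, and 0.00653 without BI replicate 4 (log2 fold change -0.40). Mxd3 (Entrez gene 17121, chromosome 13 from 55426529 to 55431119, minus strand) measured 27.0, 17.4 and 19.1 CPM in vehicle-treated tumors and from 12.7 to 21.6 CPM in BI-treated tumors. The groups overlapped, and the difference of -0.24 on the log2 scale (standard error 0.165, adjusted p = 0.296 in edgeR's quasi-likelihood test) became -0.04 without vehicle replicate 1. Exons of Mxd3 overlap those of Prelid1 on the other strand, and since the use of strand in counting is not given in the sources used here, reads there cannot be assigned with certainty.

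Mnt and Mga, the large and broadly expressed MAX partners, overlapped between the groups. Mnt (Entrez gene 17428, chromosome 11 from 74644422 to 74659227, plus strand) measured 65.3, 66.1 and 50.9 CPM in vehicle-treated and from 49.7 to 67.7 CPM in BI-treated tumors. Its log2 fold change was -0.11 with a standard error of 0.107 (adjusted p = 0.491 in edgeR's quasi-likelihood test). Mga (Entrez gene 29808, chromosome 2 from 119722964 to 119795317, plus strand) measured 127.9, 128.3 and 134.8 CPM in vehicle-treated and from 115.0 to 141.4 CPM in BI-treated tumors. It was below every vehicle-treated tumor in 5 BI-treated tumors and above them in BI replicate 5, and the difference was -0.08 on the log2 scale (standard error 0.0681, adjusted p = 0.391 in edgeR's quasi-likelihood test).

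**Figure D2:**
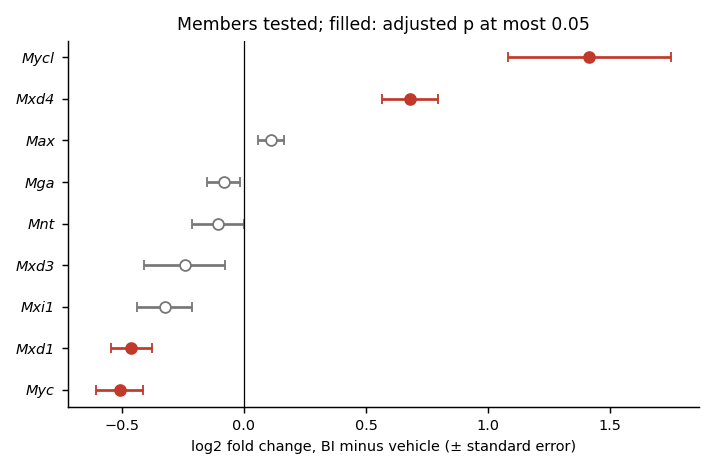
Log2 fold change of the 9 members tested, BI minus vehicle, with the standard error as horizontal bars; filled red points have an adjusted p of at most 0.05 in edgeR's quasi-likelihood test. Mycl (1.41) and Mxd4 (0.68) lie to the right, Mxd1 (-0.46) and Myc (-0.51) to the left, and the 5 open points lie between -0.32 and 0.11.

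To compare levels between genes, CPM were divided by the deposited gene length in kilobases (RPKM). In vehicle-treated tumors Myc (65.9 ± 1.05 RPKM, SD, n = 3) and Max (59.0 ± 0.757 RPKM) stood far above the rest. Mxd1, Mxi1, Mxd3 and Mnt followed at mean levels from 18.8 to 13.2 RPKM, with ranges over tumors that overlapped between neighbors in this order. Mxd4 (9.92 ± 0.492 RPKM) and Mga (9.35 ± 0.278 RPKM) came next and overlapped each other, and Mycl (0.256 RPKM) and Mycn (0.0748 RPKM) were lowest. In BI-treated tumors Max (63.7 ± 2.92 RPKM, SD, n = 6) ranked above Myc (46.3 ± 6.12 RPKM), without overlap of their ranges. Mxd4 moved from the seventh to the third place at 15.9 ± 2.05 RPKM. Its range nevertheless overlapped those of the next in order, Mxd3 (13.7 ± 2.41 RPKM), Mxd1 (13.7 ± 1.35 RPKM), Mxi1 (13.5 ± 2.13 RPKM) and Mnt (12.3 ± 1.45 RPKM).

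**Figure D3:**
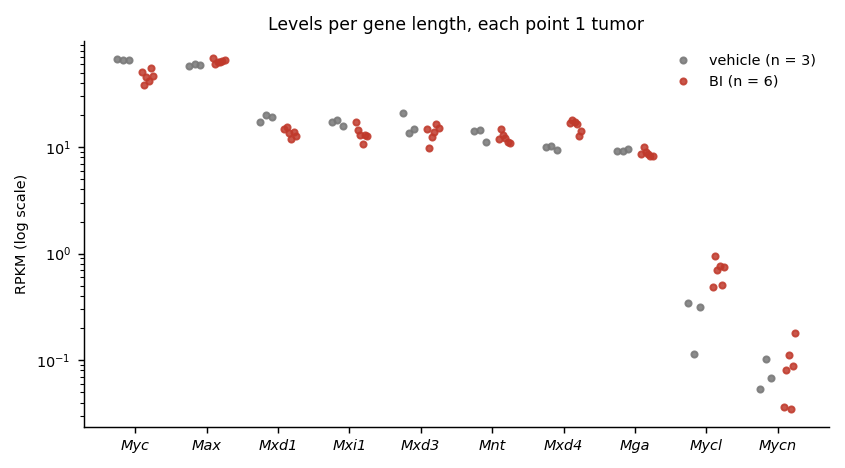
RPKM of each member on a logarithmic axis, ordered by the mean in vehicle-treated tumors, with each point 1 tumor (gray, vehicle, n = 3; red, BI, n = 6). Myc and Max lie near or above 40 RPKM in all tumors, the MXD genes, Mnt and Mga around 10 to 20 RPKM, and Mycl and Mycn below 1 RPKM.

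Set against each other within a tumor, these levels show how the make-up of the network RNA differed, as a description without a test. The ratio of Myc to Max was 1.09 to 1.15 in vehicle-treated tumors and 0.641 to 0.865 in BI-treated tumors. The ratio of Myc to Mxd4 was 6.3 to 7.0 and 2.13 to 4.34, while that of Myc to Mxd1, which moved the same way as Myc, overlapped (3.22 to 3.91 and 2.46 to 3.96). The 4 MXD genes together summed to between 58.8 and 65.0 RPKM in vehicle-treated and between 52.7 and 63.6 RPKM in BI-treated tumors. Within this sum, Mxd4 made up 15.5% to 16.7% in vehicle-treated and 22.6% to 31.2% in BI-treated tumors, and Mxd1 made up 26.4% to 32.7% and 22.4% to 27.0%. The summed MXD RNA thus overlapped between the groups through BI replicate 4 alone (63.6 RPKM). Every other BI-treated tumor was below all vehicle-treated tumors in this sum. The composition of the sum differed in the share of Mxd4.

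The letters CACGTG, the E-box bound by MAX with its partners, were searched in the RefSeq promoter windows of GRCm38.p6, which run from 250 bases before to 50 bases after a start site. The motif reads the same on both strands. Of 32851 windows, 7.15% hold it, and among the 11017 genes tested that have a window, 11.5% do. Of the 9 members with a window, 3 hold it, namely Max, Mxd4 and Mnt. No window was given for Myc. The stretches around these motifs are shown together with that of Hspd1, a MYC target described below, because they carry the letters that MAX and its partners are known to bind (5′ to 3′ on the strand of the gene, E-box in capitals). A second promoter window of Hspd1 and the window of Odc1, another target described below, do not hold these letters.
Mxd4, chr5:34187879-34187960, minus strand: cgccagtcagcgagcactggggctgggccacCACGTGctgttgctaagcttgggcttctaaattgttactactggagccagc
Max, chr12:76962219-76962296, minus strand: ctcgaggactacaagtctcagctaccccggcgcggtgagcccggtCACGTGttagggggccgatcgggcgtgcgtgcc
Mnt, chr11:74830756-74830851, plus strand: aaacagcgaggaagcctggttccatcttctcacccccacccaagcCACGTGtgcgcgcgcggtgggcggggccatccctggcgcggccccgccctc
Hspd1, chr1:55088273-55088368, minus strand: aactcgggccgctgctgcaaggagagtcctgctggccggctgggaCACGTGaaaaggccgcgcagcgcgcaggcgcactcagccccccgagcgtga

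Relative to the start site, the E-box begins at position -219 in Mxd4, -123 in Mnt, -80 in Hspd1 and -3 in Max, where it spans the start. Of these members Mxd4 was called as higher, and Max and Mnt were not called. Among the genes tested that have a window, 10.3% of those called as higher held the letters in any window. The share was 11.9% of genes called as lower and 11.6% of genes not called. A match of letters describes the sequence only and does not show that a site is bound.

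Of 36 textbook genes activated by MYC, 19 fell and 1 rose, beside 14.1% and 14.6% of all genes tested, and the median log2 fold change was -0.23. Odc1, the rate-limiting enzyme of polyamine synthesis, fell from 225 ± 51.0 CPM to 104 ± 16.9 CPM (log2 fold change -1.11, standard error 0.15, adjusted p = 0.00031 in edgeR's quasi-likelihood test). Npm1, which encodes the nucleolar protein nucleophosmin, fell from 579 ± 44.7 CPM to 347 ± 17.7 CPM (log2 fold change -0.74, adjusted p = 3.19e-05 in the same edgeR test). Hspd1, the mitochondrial chaperonin, fell from 189 ± 7.05 CPM to 132 ± 10.4 CPM (log2 fold change -0.52, adjusted p = 0.000237 in edgeR's quasi-likelihood test). In each of these 3 genes every BI-treated tumor was below every vehicle-treated tumor. Ccnd2, which encodes the cell cycle regulator cyclin D2, was the gene called as higher, from 54.5 ± 8.32 CPM to 69.0 ± 7.85 CPM. Its call was lost without vehicle replicate 2 or 3 or BI replicate 7 or 9. With an unadjusted p under 0.05 in edgeR's quasi-likelihood test, 3 of the 36 were higher and 23 lower. In all, 18 of the 36 genes were lower in every BI-treated tumor than in any vehicle-treated tumor, beside 14.0% of all genes tested. Only uniquely aligned reads were counted, so that genes with processed pseudogenes, such as Npm1 and Hspd1, may have lost reads in every tumor. Without vehicle replicate 1, or without vehicle replicate 3, 12 of the 36 were called as lower. An E-box was found in 11 of the 28 genes of this list that have a promoter window, beside 11.5% of all genes tested with a window. Among the textbook genes repressed by MYC, it was found in 0 of the 6 with a window. These shares describe genes listed as known MYC targets and do not depend on their change in BI-treated tumors. Whether these sites are bound was not tested.

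**Figure D4:**
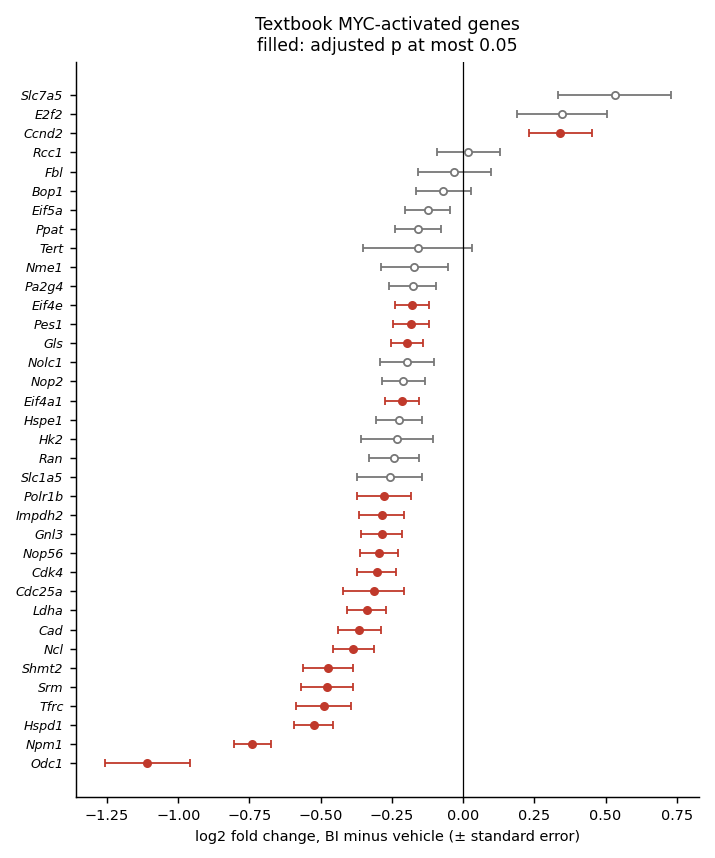
Log2 fold change of the 36 textbook MYC-activated genes, BI minus vehicle, with the standard error as bars and filled points for an adjusted p of at most 0.05 in edgeR's quasi-likelihood test. Of the 36 genes, 32 lie to the left of 0, with Odc1 (-1.11) furthest, and Ccnd2 is the filled point on the right.

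Of 8 textbook genes repressed by MYC, 2 fell and 0 rose in edgeR's quasi-likelihood test, beside 14.1% and 14.6% of all genes tested, and the median log2 fold change was 0.15. With an unadjusted p under 0.05, 3 were higher. The 2 that fell were Ndrg1, a stress-responsive gene also induced by hypoxia, from 1023 ± 133 CPM to 678 ± 120 CPM (log2 fold change -0.59, adjusted p = 0.00638 in edgeR's quasi-likelihood test), and Cdkn1b, which encodes the cell cycle inhibitor p27, with a log2 fold change of -0.26 (adjusted p = 0.0226 in the same edgeR test). Without vehicle replicate 2, the adjusted p of Cdkn1b was 0.129 in edgeR's quasi-likelihood test. As higher, DESeq2 and limma-voom called 0 of the 8, the likelihood ratio test of edgeR called 2, and 2 were called without vehicle replicate 2. At the cutoffs of the study, 2 of the 8 were higher and 1 was lower.

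The MLX arm is a parallel network in which MLX pairs with the glucose-sensing factors MLXIP and MLXIPL. The list for this arm held 6 genes tested, namely Mlx, Mlxip and Mlxipl, the target genes Txnip and Arrdc4, and the rodent MYC paralog Bmyc. Of these 6, 3 rose and 0 fell, beside 14.6% and 14.1% of all genes tested. A log2 fold change above 0 was found in 6 of 6, and in 6916 of the 13966 genes tested. DESeq2 and limma-voom called 0 of them as lower, as did edgeR's quasi-likelihood test at an unadjusted p under 0.05. Txnip, an inhibitor of glucose uptake and a classical target of this arm, rose from 239 ± 14.8 CPM to 352 ± 45.6 CPM (log2 fold change 0.56, standard error 0.103, adjusted p = 0.00211 in edgeR's quasi-likelihood test). Arrdc4, its relative and also a target of the arm, rose from 18.3 ± 2.45 CPM to 28.0 ± 3.26 CPM (log2 fold change 0.61, adjusted p = 0.0024 in the same edgeR test). Mlx rose from 32.2 ± 2.02 CPM to 38.1 ± 2.71 CPM (log2 fold change 0.24), but its call was lost when vehicle replicate 2 or 3 or BI replicate 4, 6 or 9 was left out. Mlxip had 95.9 ± 5.78 CPM and 102 ± 11.6 CPM and was not called. Mlxipl, at only 3 to 24 counts per tumor, was not called either (log2 fold change 0.42, standard error 0.521).

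Genes that control the stability of MYC protein numbered 17, of which 5 fell and 1 rose, beside 14.1% and 14.6% of all genes tested. Skp2, an F-box protein that ubiquitinates MYC and p27, fell from 63.7 ± 8.16 CPM to 46.0 ± 4.05 CPM (log2 fold change -0.47, adjusted p = 0.00293 in edgeR's quasi-likelihood test). The deubiquitinase Usp37 fell by 0.28 and the phosphatase inhibitor Set by 0.32 on the log2 scale. Aurka, a mitotic kinase that stabilizes MYCN, and Cip2a, an inhibitor of the phosphatase PP2A, were the others that fell, with log2 fold changes of -0.53 and -0.54, and both are named after their values were seen. Fbxw7, the main ubiquitin ligase of phosphorylated MYC, had 37.0 ± 2.03 CPM and 38.4 ± 2.47 CPM (log2 fold change 0.05, adjusted p = 0.602 in edgeR's quasi-likelihood test) and was likewise chosen after its values were seen. Ppp2r5a, a PP2A subunit, was called as higher with a log2 fold change of 0.14, but kept this call in only 1 of 9 fits with a tumor left out.

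Of 14 MYC cofactors, 2 fell and 0 rose in edgeR's quasi-likelihood test, a share of lower calls near the 14.1% of all genes tested. As lower, DESeq2 called 4 and limma-voom 2, 4 had an unadjusted p under 0.05, and 1 was called without vehicle replicate 1 or 3 or BI replicate 7 or 9. As higher, DESeq2 and limma-voom called 0, and 0 had an unadjusted p under 0.05. Those that fell were Ruvbl2, an ATPase of chromatin remodeling complexes (log2 fold change -0.36), and the acetyltransferase Kat2a (-0.16). Of 14 genes of the SIN3 complex recruited by MXD proteins, 2 fell and 1 rose, beside 14.1% and 14.6% of all genes tested. Hdac2, a histone deacetylase, and Rbbp7, a histone-binding subunit, had log2 fold changes of -0.21 and -0.18, and Brms1, a subunit known as a metastasis suppressor, rose from 26.8 ± 1.33 CPM to 35.8 ± 2.87 CPM (log2 fold change 0.42, adjusted p = 0.00247 in edgeR's quasi-likelihood test). Of 10 partners of MGA in the variant Polycomb complex, 2 fell, Pcgf6 (log2 fold change -0.38) and Cbx1 (-0.19), and 0 rose in edgeR's quasi-likelihood test, DESeq2 or limma-voom, with 1 higher at an unadjusted p under 0.05. The share that fell was close to the 14.1% of all genes tested. The calls of Kat2a, Hdac2, Rbbp7, Pcgf6 and Cbx1 were lost without vehicle replicate 3, and all of these but Hdac2 also without vehicle replicate 1. Hdac2 lost its call without vehicle replicate 2 too, and Kat2a without BI replicate 7 or 9.

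Because the tumors also differed in their cell type markers, each called member was set against summed marker lists within the same tumor. These ratios were chosen after the values had been seen and are given without a test, and the part of cell composition in the results was not tested. The sum of the 6 epithelial markers was almost all Krt8 and Krt18, the 2 called as lower, while the other 4 were not called. Ratios to this sum are thus in effect ratios to these keratins. Relative to 1000 CPM of the 6 epithelial markers, Myc measured 133 to 165 CPM in vehicle-treated and 95.9 to 159 CPM in BI-treated tumors. The groups overlapped in this ratio, with 2 of 6 BI-treated tumors below. Relative to 1000 CPM of the 10 proliferation markers, of which 6 fell and none rose, it measured 54.4 to 72.1 CPM and 50.3 to 65.6 CPM, again with overlap. Relative to macrophage, T and NK cell, B cell and dendritic cell markers, Myc was below all vehicle-treated tumors in 6 of 6 BI-treated tumors. The same held relative to fibroblast, endothelial and adipocyte markers. Relative to neutrophil markers it was above them in 5 of 6, and relative to skeletal muscle markers the groups overlapped.

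Mxd1 relative to the same epithelial sum was 71.9 to 93.7 CPM in vehicle-treated and 72.4 to 83.3 CPM in BI-treated tumors, all within the vehicle range. Relative to 1000 CPM of the neutrophil markers it was 71.4 to 87.0 CPM and 71.0 to 170 CPM, with 4 of 6 BI-treated tumors above. Relative to macrophage, T and NK cell, dendritic cell, fibroblast, endothelial and adipocyte markers, Mxd1 was below all vehicle-treated tumors in 6 of 6. Mxd4 per epithelial marker did not overlap (10.3 to 11.6 CPM against 18.0 to 27.1 CPM), and per 1000 CPM of macrophage markers it was lower in all BI-treated tumors (5.6 to 6.41 CPM against 6.71 to 8.08 CPM). It was also lower in all of them per 1000 CPM of T and NK cell markers (61.8 to 94.3 CPM against 100 to 136 CPM). Relative to proliferation, neutrophil and endothelial markers Mxd4 was higher in all BI-treated tumors, and relative to the other lists the groups overlapped. Mycl per 1000 CPM of the 5 dendritic cell markers, of which 4 rose, was 7.0 to 27.0 CPM in vehicle-treated and 18.4 to 32.4 CPM in BI-treated tumors. The groups overlapped in this ratio, as they did for Mycl relative to T and NK cell markers (4.5 to 11.0 CPM and 7.29 to 14.0 CPM). They also overlapped for Mycl relative to macrophage markers (0.222 to 0.797 CPM and 0.546 to 0.983 CPM) and to fibroblast, adipocyte and skeletal muscle markers. Per 1000 CPM of epithelial markers Mycl did not overlap (0.342 to 1.14 CPM against 1.8 to 3.61 CPM), and it was also above all vehicle-treated tumors in 6 of 6 BI-treated tumors relative to proliferation, neutrophil, B cell and endothelial markers.

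**Figure D5:**
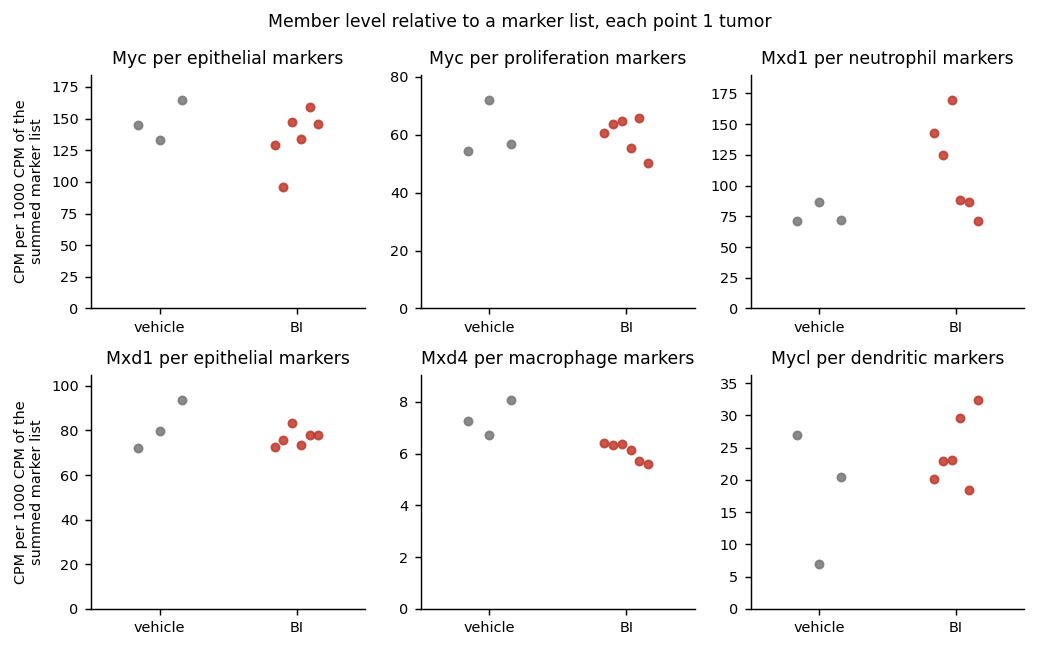
Level of Myc, Mxd1, Mxd4 and Mycl per 1000 CPM of a summed marker list, each point 1 tumor (gray, vehicle, n = 3; red, BI, n = 6), with axes that start at 0. The groups overlap for Myc per epithelial or proliferation markers and for Mycl per dendritic markers, and Mxd4 per macrophage markers is lower in the BI-treated tumors.

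The genes whose profile over the 9 tumors was nearest to that of a member were found by the root mean square distance of log2 CPM, centered per gene, among 13965 genes. Nearest to Myc were Dixdc1 (distance 0.0668), Shmt2 (0.067) and Ercc1 (0.0674), against a median distance of 0.324. Shmt2, the mitochondrial serine hydroxymethyltransferase, is on the list of MYC-activated genes and fell from 109 ± 4.58 CPM to 78.5 ± 9.07 CPM (log2 fold change -0.47, adjusted p = 0.00208 in edgeR's quasi-likelihood test). Dixdc1, a Wnt pathway component, had a log2 fold change of -0.53 and Ercc1, a DNA repair endonuclease subunit, one of -0.53. Nearest to Mxd4 were P2rx7, an ATP-gated channel of leukocytes (distance 0.0687), Tifa, an adaptor of NF-kappaB signaling (0.0692), and Cnr2, the cannabinoid receptor of leukocytes (0.0765). Their log2 fold changes were 0.69, 0.60 and 0.58, and all BI-treated tumors were above all vehicle-treated tumors in each. All these genes were chosen for profiles near those of Myc or Mxd4 over the same tumors. Fold changes, adjusted p and group separation like those of the member therefore follow from that choice.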

How the data were processed

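RNA from 3 vehicle-treated and 6 BI-treated 4T1 tumors, 1 library per mouse, was sequenced from both ends. The authors aligned reads to mm9 with STAR, kept unique hits, and deposited raw counts of reads that start in any exon of a RefSeq gene (QuasR), without normalization. Deposited gene lengths were used for RPKM only. RefSeq symbols were matched on Entrez identifiers for 18700 of 18755 genes. Positions came from GENCODE on the same assembly and promoter windows from RefSeq on GRCm38.p6.

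BI was compared with vehicle in edgeR 4.0.16 (R 4.3.3) with TMM, filterByExpr (minimum count 10, minimum total count 15) and the quasi-likelihood F test without covariates. The standard errors given with this F test are the absolute log2 fold change divided by the square root of F, not separate estimates. Single genes were also permuted exactly (log2 CPM, prior count 2, two-sided). The test was run on counts simulated under its own count model, with the spread estimated from these data. That check cannot show how the test behaves where real tumors depart from the model. Tumors differed by more than counting error (mean chi-square per gene 8.48 to 28.5 within groups), and count limits cover counting error only. The labels name no batch, and nothing further describes the replicates. The p-values weigh the difference between groups against the spread between tumors within groups.

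The members and gene lists were chosen with earlier results of these data known. Of 181 list entries, 1 had no counts. Text genes were all members, up to 3 called genes with the smallest p per list and direction, genes called against most of their list, and the 3 profiles nearest to Myc and to the called member with the smallest p. Alternatives were RLE or library size, no filter or 1 CPM in 3 tumors, DESeq2 1.42.0, limma-voom (limma 3.58.1), the likelihood ratio test, the cutoffs of the study, TPM, and leaving out each tumor. Marker-list ratios were added after seeing the data.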

Additional observations from a re-analysis of the deposited data

How the results depend on the processing

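The directions of all 9 members tested held under every alternative, and the calls of Mycl and Mxd4 did too. The calls of Myc and Mxd1 held in every setting but the cutoffs of the study, whose fold limit their log2 fold changes of -0.51 and -0.46 do not reach, so that 0 members were then called as lower. Mxi1 passed with no filter on low counts (-0.33), DESeq2 (-0.32), limma-voom (-0.34) and edgeR's likelihood ratio test (-0.32), with adjusted p from 0.0284 to 0.0471, and leaving out each tumor gave -0.40 to -0.27, called without BI replicate 4 alone. With each tumor left out, Myc ranged from -0.56 to -0.46 and the adjusted p of the 4 called members reached no more than 0.0282 (edgeR's quasi-likelihood test).

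Over all genes, 2040 were called as higher and 1973 as lower. Applied to the fit made here, the cutoffs of the study gave 1339 and 499, which are not the counts the study itself reported. Leaving out each tumor gave 1332 to 2026 and 1172 to 1980, the fewest without vehicle replicate 3, and 1289 lower without vehicle replicate 1. Of the genes on the pathway lists, 6 were called as higher and 32 as lower, against 3 and 3 at the cutoffs of the study, and 3 to 6 and 19 to 35 with a tumor left out, with 3 and 19 without vehicle replicate 3 and 21 lower without vehicle replicate 1. MYC-activated genes called as lower numbered 12 to 20 with a tumor left out, 12 without vehicle replicate 1 or 3, and 2 at the cutoffs of the study. TPM gave the same order of levels in vehicle-treated tumors for 10 of 10 members. No paired analysis was possible because the groups share no replicate number. Depth limits Mycn, whose unfiltered log2 fold change was 0.20 with a standard error of 0.586. Of 30 genes named from the network and its lists, none had a BI-treated tumor far from the others by Dixon's criterion.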
